A study of Mus musculus with 6 samples.

Results

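The genes described here are hepcidin and 9 genes of iron handling in the liver, chosen by name as the hormone Hamp, its copy Hamp2, and the genes whose products export, take up, carry, store or oxidize iron or sense it. They were chosen with earlier results of these data known. All 10 were found among the 23284 genes in the count files, 9 by their symbol and Tfr2 under its older symbol Trfr2. RNA was sequenced from the livers of 6 male C57BL/6 mice, 3 given vehicle and 3 given FGF19, the human form of the intestinal hormone that in mice is FGF15. All mice were 8 weeks old, were fasted overnight and went on fasting during the 6 h of treatment, and the FGF19 group received 1 mg/kg. A single dose and a single time were therefore compared in fasted mice, and whole liver was used, in which fewer cells of a type and less RNA per cell cannot be told apart.

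Iron has no regulated route out of the body, so its level in blood is set by uptake and release. Hepcidin, a peptide that hepatocytes secrete, binds the iron exporter ferroportin on gut cells, macrophages and hepatocytes and causes its breakdown, which keeps iron inside cells. Hepatocytes raise Hamp mRNA when transferrin is loaded with iron, through BMP and SMAD proteins, and in inflammation, through IL-6 and STAT3. Inside cells, iron regulatory proteins bind hairpins in mRNAs, the iron-responsive elements, when iron is scarce: they block translation of the ferritins and ferroportin and stabilize the transferrin receptor mRNA.

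Mouse liver has a pair of hepcidin genes, and the 250 bases before their starts are shown because these hold short stretches of the kind that STAT and SMAD proteins recognize. Both lie on the minus strand of mm9, 18187 bases apart, and are printed 5′ to 3′ with the matches in capitals: TTCNNNGAA, the STAT motif, and GGCGCC, the BMP response motif, each searched on both strands. The Hamp window is chr7:31729037-31729286 and the Hamp2 window is chr7:31709201-31709450.
Hamp: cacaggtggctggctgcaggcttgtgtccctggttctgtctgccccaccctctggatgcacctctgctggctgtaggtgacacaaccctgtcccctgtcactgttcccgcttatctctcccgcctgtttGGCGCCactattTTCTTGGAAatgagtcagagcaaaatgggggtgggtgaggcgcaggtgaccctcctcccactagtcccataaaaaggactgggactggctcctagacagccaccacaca
Hamp2: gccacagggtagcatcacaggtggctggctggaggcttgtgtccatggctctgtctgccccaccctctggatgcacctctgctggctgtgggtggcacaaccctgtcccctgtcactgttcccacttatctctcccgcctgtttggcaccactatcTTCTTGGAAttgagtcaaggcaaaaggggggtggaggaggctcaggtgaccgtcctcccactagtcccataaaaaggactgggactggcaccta
TTCTTGGAA was found in both, from -109 to -101 of the Hamp start and from -94 to -86 of the Hamp2 start. GGCGCC was found in Hamp from -121 to -116, while the aligned bases of Hamp2, from -106, differed by G4A, counted from the 5′ end of the motif with the base of Hamp first. Among the other 8 genes, the STAT motif was found before Hfe2 and the BMP response motif before Tfrc, and no other match to these letters lay in their windows. Of 23102 promoters of the same length, 6.83% held the STAT motif and 12.5% the BMP response motif. The aligned promoters were 92.8% identical over 235 bases and the spliced exons 94.4% identical over 394 bases.

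A second set of sequences is shown because it holds hairpins of the kind that iron regulatory proteins bind. The search was for a 6-base loop, CAGTGN with a last base other than G, between 5 paired bases on each side and a C before the upper stem, and the loop is in capitals in each 27-base stretch of mm9 mRNA sequence. It found 7 matches in 4 of the 10 genes, namely 1 each in the 5′ UTRs of Slc40a1 (chr1:45982311-45982337, minus strand), Fth1 (chr19:10057223-10057249, plus strand) and Ftl1 (chr7:52715150-52715176, minus strand), and 4 in the 3′ UTR of Tfrc (plus strand, chr16:32631306-32631332, chr16:32631685-32631711, chr16:32631750-32631776 and chr16:32631797-32631823, printed in this order).
Slc40a1: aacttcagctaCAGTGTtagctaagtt
Fth1: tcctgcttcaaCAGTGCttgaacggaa
Ftl1: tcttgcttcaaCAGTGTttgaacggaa
Tfrc: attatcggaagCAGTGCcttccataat
Tfrc: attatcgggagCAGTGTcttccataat
Tfrc: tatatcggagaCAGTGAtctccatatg
Tfrc: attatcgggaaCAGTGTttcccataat
The same search matched 186 of 23102 gene models, or 0.805%.

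The libraries held between 18994654 and 22920056 counts, which were scaled to counts per 1000000 (CPM) by the TMM method. A count of 0 would allow up to 3 counts, or between 0.131 and 0.158 CPM, and the members' counts per library lay between 218 and 323373, far above this. Library totals were not the only difference within groups, since FGF19 replicate 3 differed more from its group than the other two mice did from each other, with a chi-square per degree of freedom of 31.5 and 41.8 against 8.68. Without it, edgeR called 1015 genes higher and 926 lower, against 573 and 357 with all 6 mice. Leaving out any other mouse lowered both counts, to between 236 and 398 higher and between 91 and 202 lower. Among the vehicle mice, replicates 1 and 2 differed most, with a chi-square per degree of freedom of 29.8. The summed level of 6 hepatocyte markers was between 95562 and 100770 CPM in the vehicle mice and between 89173 and 98992 CPM in the FGF19 mice. Most of it was Alb, with means of 69308 and 66347 CPM. Singly, Cps1 lay lower in every FGF19 mouse (log2 fold change -0.35, edgeR adjusted p = 0.125). The groups overlapped for Alb (-0.06), Apoa1 (-0.07), Ttr (-0.22), Asgr1 (-0.19) and Apob (0.12), and no marker passed the edgeR test.

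Of the 10 genes, 1 passed the edgeR quasi-likelihood test at an adjusted p under 0.05 (Benjamini-Hochberg over 12559 genes). This was Cp, which rose, where 4.56% of all genes tested rose, and none of the 10 fell, where 2.84% of all genes did. At an unadjusted p under 0.01, 1 member was higher (Cp, background 6.2%) and 1 was lower (Slc40a1, background 4.98%), and at an unadjusted p under 0.05 there were 6, of which 4 were lower (background 11.3%) and 2 higher (background 11.6%). DESeq2 called 2 higher (Cp and Trf, background 5.11%) and 1 lower (Slc40a1, background 4.13%). With limma-voom, 1 was higher (background 4.33%) and 0 lower (background 2.85%). Fitted changes were below 0 for 8 genes and above 0 for 2, with a median log2 fold change of -0.22 against -0.00076 over all genes tested. In 2 genes, Cp and Trf, every FGF19 mouse lay above every vehicle mouse (background 14.5%). In 4 genes, Hamp2, Slc40a1, Tfrc and Tfr2, every FGF19 mouse lay below every vehicle mouse (background 13.8%), and in the other 4 the groups overlapped.

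**Figure D1:**
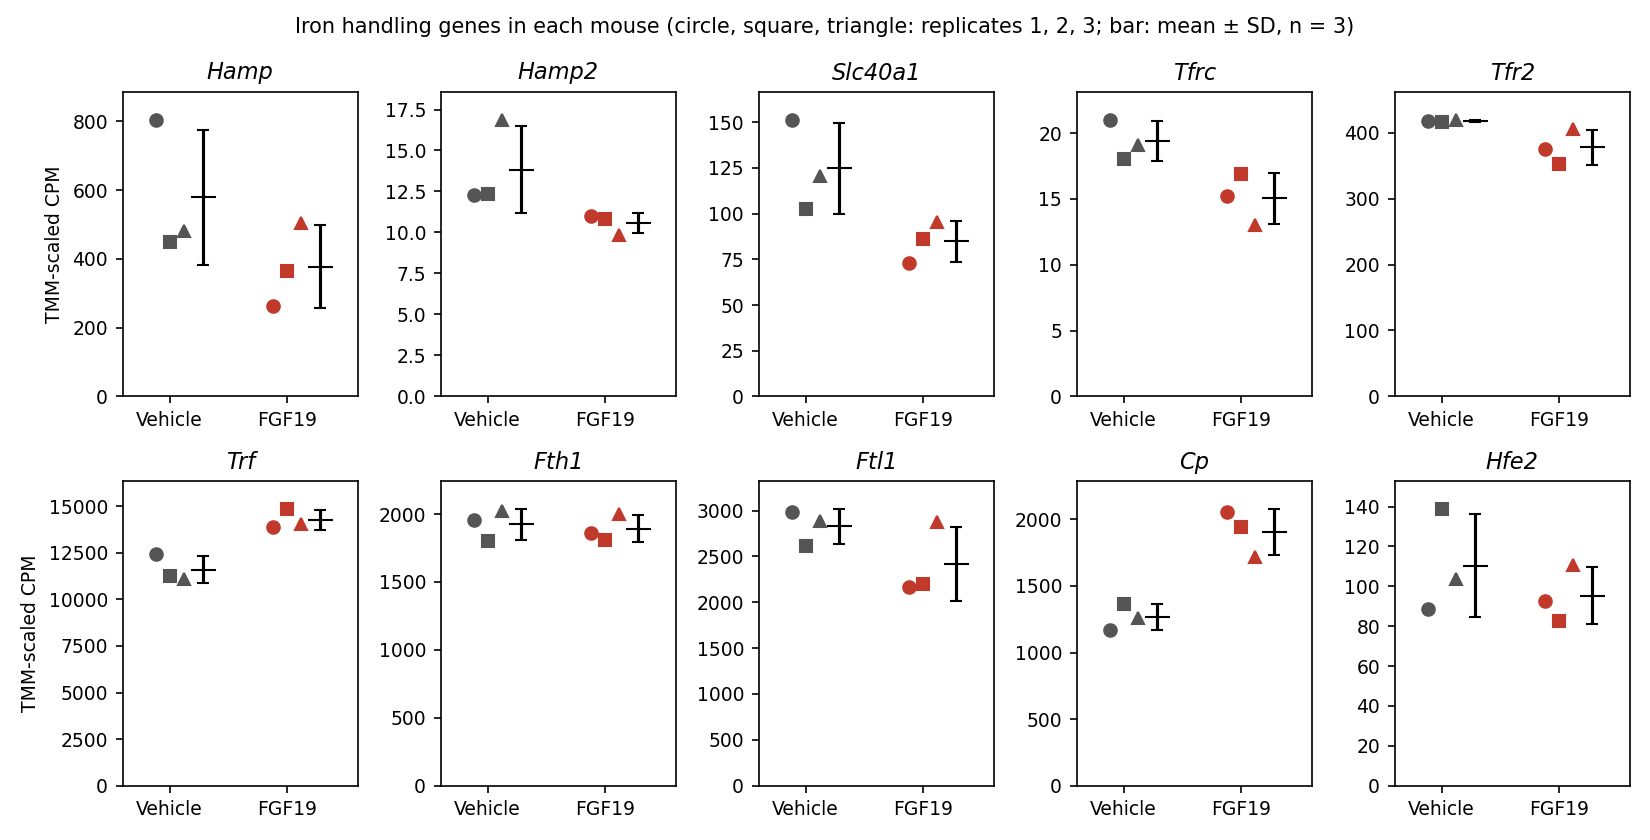
TMM-scaled CPM of the 10 iron handling genes in each mouse, vehicle in grey and FGF19 in red, with the mean and SD of 3 mice beside the points and every axis starting at 0. Cp and Trf have all 3 FGF19 mice above the vehicle mice, and Vehicle replicate 1 stands above the rest for Hamp with 805 CPM.

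**Figure D2:**
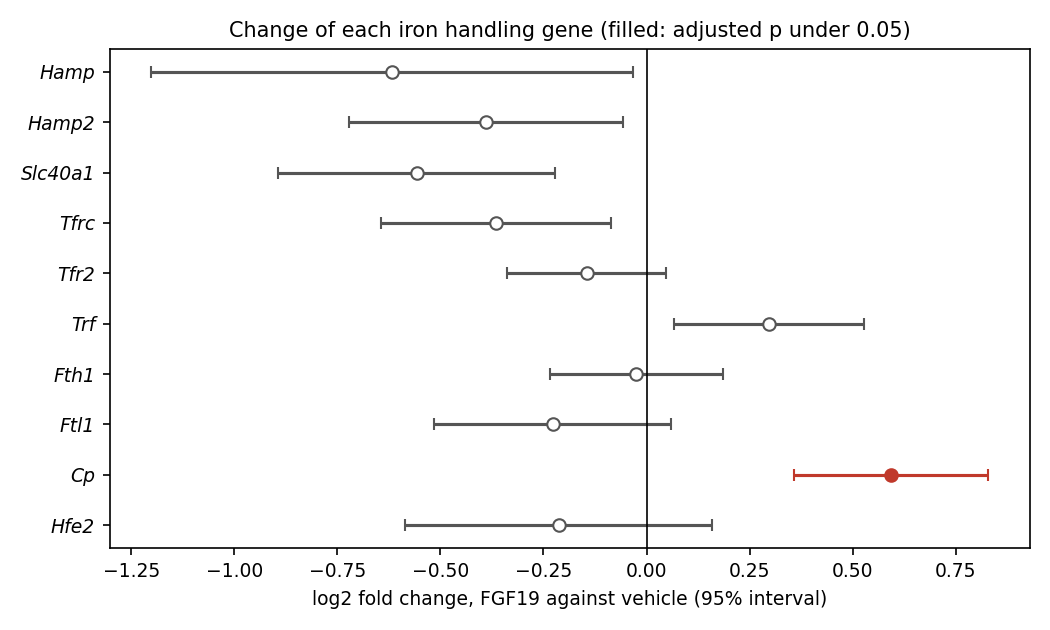
Log2 fold change of each gene, FGF19 against vehicle, with its 95% interval from the edgeR fit on 6 mice. Only Cp, at 0.59, is filled, which marks an adjusted p under 0.05, and the intervals of Tfr2, Fth1, Ftl1 and Hfe2 cross 0.

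Hamp encodes hepcidin itself and lies on mm9 chromosome 7, 31727388 to 31729036, on the minus strand. It was at 805, 449 and 482 CPM in vehicle replicates 1, 2 and 3, and at 264, 365 and 503 CPM in FGF19 replicates 1, 2 and 3. The groups overlapped, since FGF19 replicate 3 was above the lower pair of vehicle mice, and the highest mouse, vehicle replicate 1, had 3.05 times the level of the lowest, FGF19 replicate 1. Means were 579 ± 197 and 377 ± 120 CPM (SD, n = 3 each), and the log2 fold change was -0.62 with an SE of 0.26 and a 95% interval from -1.20 to -0.03 (edgeR adjusted p = 0.195). Hamp did not pass the adjusted threshold in the main test or in any of 13 alternatives, whose adjusted p ran from 0.0529 to 0.509. Its change was -0.30 without vehicle replicate 1 and -0.88 without FGF19 replicate 3, a wider range on the log2 scale than leaving out 1 mouse gave for any other of the 10 genes.

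Hamp2, the neighbouring copy, lies on chromosome 7 from 31707391 to 31709200, minus strand. It was far lower than Hamp, at 12.3, 12.3 and 16.9 CPM with vehicle and at 10.98, 10.84 and 9.87 CPM with FGF19. The groups did not overlap, but the gap between the nearest mice was small, and vehicle replicate 3 stood above the others. The log2 fold change was -0.39 (SE 0.15, 95% interval -0.72 to -0.06, edgeR adjusted p = 0.151, n = 3 each), and -0.22 without vehicle replicate 3. Mouse for mouse the pair did not follow each other, since the mouse with the most Hamp was vehicle replicate 1 and that with the most Hamp2 was vehicle replicate 3. Per kilobase of exon, Hamp was 72.6, 40.3 and 31.7 times Hamp2 in the vehicle mice and 26.7, 37.3 and 56.6 times in the FGF19 mice, which overlap. A genome search with either mRNA gave no other hit of at least 100 bases with 98% identity over its length. The longest other hit was 221 bases at 88.2% for Hamp. Shorter hits, and closer stretches within a hit, were not assessed. Pancreas also expresses Hamp2, and 6 acinar markers, of which 1 could be tested and Ctrb1 was at 0, summed to between 0.191 and 0.546 CPM with vehicle and between 0.679 and 1.20 CPM with FGF19. Their part in the Hamp2 level was not tested.

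Hfe2 encodes hemojuvelin, the BMP co-receptor that hepatocytes need for normal hepcidin levels, on chromosome 3 from 96329108 to 96333139, plus strand. It was at 88.7, 139 and 104 CPM with vehicle and at 92.6, 82.4 and 111 CPM with FGF19. The groups overlapped, and the vehicle mice spread over a wider range than the FGF19 mice. Its log2 fold change of -0.21 (SE 0.17, 95% interval -0.59 to 0.16) had an edgeR adjusted p of 0.501. It was -0.016 without vehicle replicate 2 and -0.35 without vehicle replicate 1.

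Tfr2 encodes the second transferrin receptor, which in hepatocytes senses iron-loaded transferrin and signals to Hamp, on chromosome 5 from 138011079 to 138028709, plus strand. It was at 417, 417 and 420 CPM in the vehicle mice, with the smallest spread relative to its mean of any of the 10 genes, and at 376, 353 and 405 CPM in the FGF19 mice. All 3 FGF19 mice lay below, with FGF19 replicate 3 nearest to the vehicle level. In the fit the log2 fold change was -0.15 with an SE of 0.09 and a 95% interval from -0.34 to 0.05 (edgeR adjusted p = 0.356), and it was -0.09 without FGF19 replicate 2.

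Slc40a1 encodes ferroportin, the only known exporter of iron from mammalian cells and the target of hepcidin, on chromosome 1 from 45964915 to 45982439, minus strand. It was at 151, 102 and 121 CPM with vehicle and at 73.0, 86.1 and 95.3 CPM with FGF19. Every FGF19 mouse lay below every vehicle mouse, and FGF19 replicate 3 came close to vehicle replicate 2. Means were 125 ± 24.8 and 84.8 ± 11.2 CPM (SD, n = 3 each), with a log2 fold change of -0.56, an SE of 0.15 and a 95% interval from -0.89 to -0.22. The unadjusted p was 0.00431 and the adjusted p 0.0551 by edgeR, just past the threshold. Slc40a1 was called lower by DESeq2 (adjusted p = 0.00753), by edgeR with no filter on low counts (adjusted p = 0.0341) and by the edgeR likelihood ratio test (adjusted p = 0.0115), as well as by edgeR without vehicle replicate 2 (adjusted p = 0.0309) or FGF19 replicate 3 (adjusted p = 0.0306). Kupffer cells, the liver macrophages, also express Slc40a1, and 7 Kupffer cell markers summed to between 180 and 227 CPM with vehicle and between 182 and 215 CPM with FGF19. These sums overlap and none of the markers was at 0, but single markers differed. Marco rose from 6.15 ± 2.94 to 30.2 ± 2.01 CPM (log2 fold change 2.29, edgeR adjusted p = 0.00105), and this gain is within the sum. Vsig4 lay lower in every FGF19 mouse, at 20.02 ± 3.91 against 13.7 ± 1.93 CPM (log2 fold change -0.54, edgeR adjusted p = 0.0755), Emr1 lay higher in every FGF19 mouse (0.36, edgeR adjusted p = 0.155), and Clec4f (-0.29), Cd5l (-0.22), Timd4 (0.09) and Csf1r (0.04) overlapped. The part of these cells in the Slc40a1 values was not tested.

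The order of mice for Slc40a1 was like that for Hamp, with vehicle replicate 1 highest and FGF19 replicate 1 lowest for both. Per length, Hamp was 45.6, 37.6 and 34.3 times Slc40a1 with vehicle and 31.0, 36.4 and 45.3 times with FGF19, so the ratio of the hormone mRNA to that of its target overlapped between the groups. Over the 7542 genes with a mean of at least 10 CPM, the levels most like that of Hamp across the 6 mice were those of Slc25a20, Ttr, Nudt7, Tmem93 and Rps27l, with Pearson correlations of log2(CPM + 1) between 0.978 and 0.983. These 6 points include the difference between the groups and share their libraries, and the values are a description. None of the 5 genes passed the test, with edgeR adjusted p between 0.155 and 0.375.

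**Figure D3:**
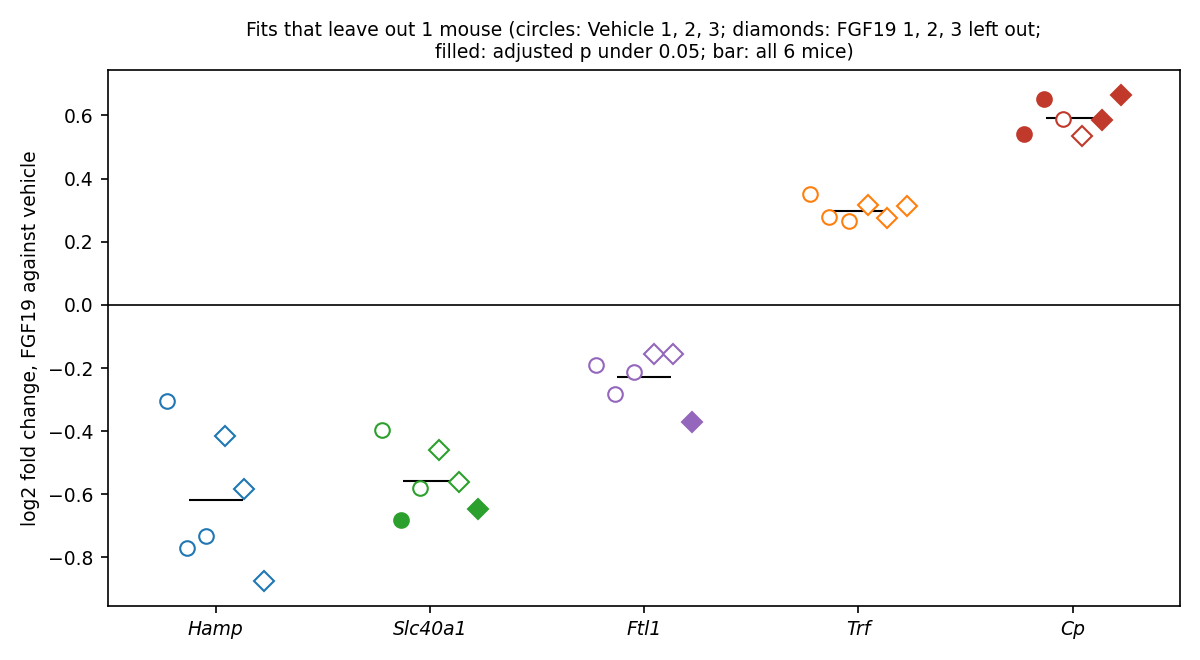
Log2 fold change of 5 genes, FGF19 against vehicle, in fits that each leave out 1 mouse, with a bar for the fit on all 6. Circles stand for vehicle and diamonds for FGF19 replicates 1, 2 and 3 left out, from left to right, and filled symbols have an adjusted p under 0.05. Hamp runs from -0.88 to -0.30 and is never filled, Cp stays between 0.53 and 0.67, and Ftl1 is filled only without FGF19 replicate 3.

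Trf encodes transferrin, the plasma protein that carries iron and that hepatocytes secrete, on chromosome 9 from 103111206 to 103132616, minus strand. It was among the 7 genes with the most counts in every library and alone took between 1.11% and 1.53% of all counts. Its levels were 12456, 11282 and 11080 CPM with vehicle and 13891, 14860 and 14061 CPM with FGF19. All FGF19 mice lay above all vehicle mice. Means were 11606 ± 743 and 14270 ± 517 CPM (SD, n = 3 each), and the log2 fold change was 0.30 with an SE of 0.10 and a 95% interval from 0.07 to 0.53 (edgeR adjusted p = 0.117). DESeq2 called Trf higher (adjusted p = 0.0387), and the other 12 alternatives did not.

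Cp encodes ceruloplasmin, a copper-containing ferroxidase that hepatocytes secrete and that oxidizes iron leaving cells so that transferrin can bind it, on chromosome 3 from 19857054 to 19907609, plus strand. It was at 1170, 1367 and 1256 CPM with vehicle and at 2058, 1942 and 1720 CPM with FGF19. The groups were well apart, with every FGF19 mouse above every vehicle mouse. Cp rose 1.51-fold, from 1264 ± 98.8 to 1907 ± 172 CPM (SD, n = 3 each), a log2 fold change of 0.59 with an SE of 0.105 and a 95% interval from 0.36 to 0.83 (edgeR adjusted p = 0.0103). The direction held in all 13 alternatives, with log2 fold changes from 0.53 to 0.67. The call was lost without vehicle replicate 3 (0.59, edgeR adjusted p = 0.0614) and without FGF19 replicate 1 (0.53, edgeR adjusted p = 0.0544).

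Trf and Cp were both higher but not by the same amount. Per length, Trf was 22.8, 17.7 and 18.9 times Cp with vehicle and 14.4, 16.4 and 17.5 times with FGF19. All FGF19 ratios lay below the vehicle ratios, by a narrow margin between FGF19 replicate 3 and vehicle replicate 2. This is a description with no test.

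Tfrc encodes the main transferrin receptor, which takes up iron-loaded transferrin and is low in hepatocytes and high in red cell precursors, on chromosome 16 from 32608982 to 32632880, plus strand. It was at 21.0, 18.0 and 19.1 CPM with vehicle and at 15.2, 16.9 and 13.0 CPM with FGF19. The groups did not overlap, and FGF19 replicate 2 came nearest to the vehicle mice. The log2 fold change was -0.37 with an SE of 0.12 and a 95% interval from -0.64 to -0.09 (edgeR adjusted p = 0.114). Per length, Trf was 1249, 1320 and 1225 times Tfrc with vehicle and 1924, 1857 and 2272 times with FGF19, with no overlap. The summed level of 7 erythroid markers was between 57.83 and 79.4 CPM with vehicle and between 43.6 and 57.68 CPM with FGF19, ranges that nearly touch, and nearly all of it came from Alas2. Of these markers only Alas2 could be tested, and it did not pass (log2 fold change -0.51, edgeR adjusted p = 0.0645), with groups that overlapped. The hemoglobin genes Hba-a1, Hba-a2, Hbb-b1 and Hbb-b2 were listed at 0 in these files, which leave out reads that align to several places. Their part in the Tfrc values was not tested.

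Fth1 encodes the ferritin heavy chain, the ferroxidase subunit of the shell that stores iron, on chromosome 19 from 10057193 to 10059582, plus strand. Its levels were 1953, 1798 and 2020 CPM with vehicle and 1861, 1810 and 2002 CPM with FGF19. The groups overlapped almost completely. A log2 fold change of -0.02 was fitted, with an SE of 0.09 and a 95% interval from -0.23 to 0.18 (edgeR adjusted p = 0.906).

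Ftl1 encodes the ferritin light chain, which helps the stored iron form its mineral core, on chromosome 7 from 52713314 to 52715256, minus strand. It was at 2980, 2616 and 2891 CPM with vehicle and at 2164, 2202 and 2881 CPM with FGF19. FGF19 replicates 1 and 2 lay below all vehicle mice, and FGF19 replicate 3 lay among them. With all 6 mice the log2 fold change was -0.23 with an SE of 0.13 and a 95% interval from -0.51 to 0.06 (edgeR adjusted p = 0.329), and without FGF19 replicate 3 it was -0.37 (edgeR adjusted p = 0.0266). Of the 970 bases of Ftl1 mRNA, 95.8% had a copy elsewhere in the genome at 98% identity or more, and because reads with several alignments were left out, its counts and any level set beside those of other genes are uncertain.

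The ratio of heavy to light chain mRNA per length was 0.734, 0.770 and 0.783 with vehicle and 0.963, 0.921 and 0.778 with FGF19. FGF19 replicates 1 and 2 stood above the vehicle mice, and FGF19 replicate 3 was among them, as for Ftl1 itself.

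Levels between genes were compared as CPM per kilobase of exon. With vehicle, the order was Trf at 4977, Ftl1 at 2916, Fth1 at 2221, Hamp at 1469, Cp at 253, Tfr2 at 143, Hfe2 at 54.6, Slc40a1 at 36.9, Hamp2 at 31.7 and Tfrc at 3.94 CPM per kilobase. The order of the group means was the same with FGF19, from Trf at 6119 to Tfrc at 3.06 CPM per kilobase. Among vehicle mice, the neighbours whose values overlapped were Hfe2 with Slc40a1 and Slc40a1 with Hamp2, and every other neighbouring pair was apart. The place of Ftl1 is uncertain, since most of its mRNA has near copies elsewhere and reads with several alignments were left out. The 10 genes together took between 1.81% and 2.23% of all counts in a library, most of it from Trf.

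**Figure D4:**
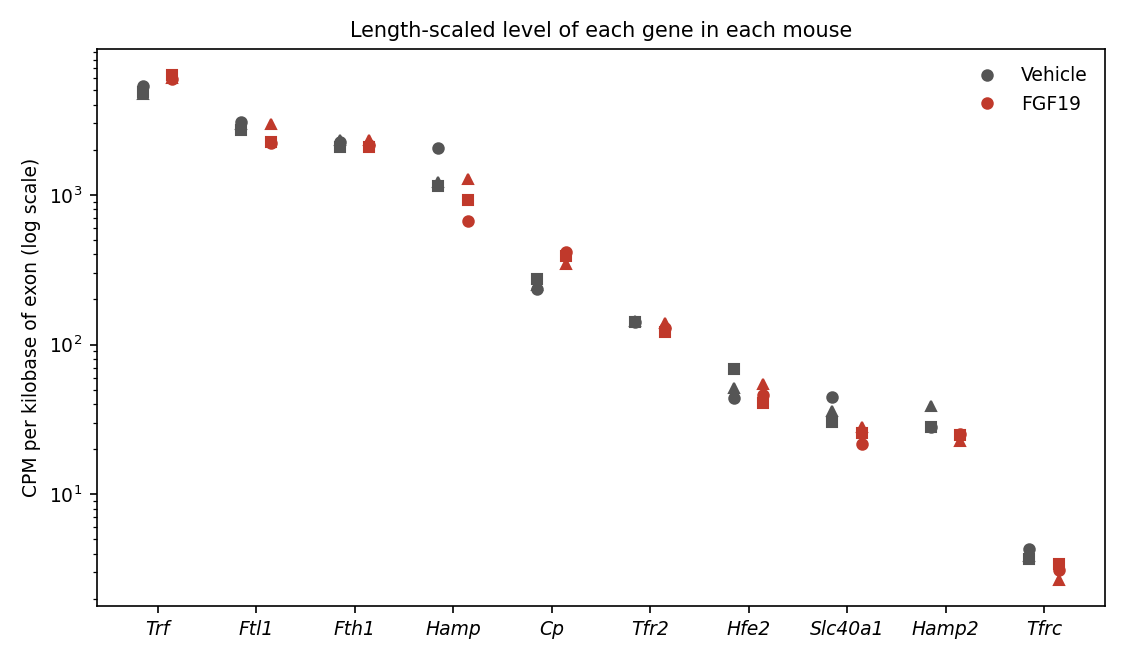
CPM per kilobase of exon of each gene in each mouse on a log scale, with genes in the order of their vehicle means, vehicle in grey and FGF19 in red, and circles, squares and triangles for replicates 1, 2 and 3. The genes run from Trf at 4977 down to Tfrc at 3.94 in the vehicle mean, and the spread among the mice of a group is widest for Hamp. The place of Ftl1 is uncertain because of its near copies.

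The other genes of iron handling were taken from 5 lists by role. These lists were drawn up with earlier results of these data known, so their counts are no independent test against all genes. Of their 78 genes, 73 passed the filter on low counts, of which 7 rose, 3 fell and 63 did not pass the edgeR test, against 4.56% and 2.84% of all genes tested. Their median log2 fold change was -0.04.

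Among genes of hepcidin control by BMP and SMAD proteins, 1 of 17 tested fell and none rose, with a median of -0.04. The gene that fell was Tmprss6, a protease of the hepatocyte surface that cleaves hemojuvelin and so lowers hepcidin. Tmprss6 was at 435, 436 and 413 CPM with vehicle and at 342, 331 and 338 CPM with FGF19, a log2 fold change of -0.35 (SE 0.08, edgeR adjusted p = 0.0302). The groups were tight and apart, though the call was lost with a replicate block and without any 1 of the mice other than FGF19 replicate 3. Among genes of inflammatory control of hepcidin, 1 of 10 rose and none fell, with a median of 0.03. This was Stat3, which carries the IL-6 signal to the Hamp promoter, at 88.7, 103 and 105 CPM with vehicle and 147, 142 and 127 CPM with FGF19 (log2 fold change 0.49, SE 0.10, edgeR adjusted p = 0.0172). All FGF19 mice lay above the vehicle mice, and 8 of 13 alternatives kept the call. It was lost with a replicate block, without vehicle replicate 1 or 3, and without FGF19 replicate 1 or 2.

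Among genes of iron uptake and reduction, 3 of 11 tested rose and none fell, while the median was -0.07. Lcn2, a secreted protein that binds bacterial siderophores and so withholds iron from bacteria, was at 5.34, 6.68 and 5.41 CPM with vehicle and at 434, 596 and 677 CPM with FGF19 (log2 fold change 6.61, edgeR adjusted p = 5.24e-07). Steap4, a metalloreductase, rose from 39.6 ± 1.97 to 318 ± 90.6 CPM (log2 fold change 3.01, edgeR adjusted p = 3.98e-05). Slc11a2, the iron transporter DMT1, rose from 28.5 ± 0.888 to 41.6 ± 0.592 CPM (log2 fold change 0.54, edgeR adjusted p = 0.00485). Each of these 3 calls held in all 13 alternatives. Lcn2 is also made by neutrophils, whose 7 markers, of which S100a9 alone could be tested and rose, summed to between 0.524 and 1.59 CPM with vehicle and between 3.02 and 4.32 CPM with FGF19. Their part in the Lcn2 level was not tested.

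Among genes of heme synthesis and recycling, 3 of 18 rose and 1 fell, with a median of -0.01. The genes that rose bind or break down heme and hemoglobin. Hpx, hemopexin, which binds free heme in plasma, rose from 3212 ± 361 to 8057 ± 408 CPM (log2 fold change 1.33, edgeR adjusted p = 0.000239). Hp, haptoglobin, which binds free hemoglobin, rose from 3742 ± 250 to 8840 ± 584 CPM (log2 fold change 1.24, edgeR adjusted p = 0.000236). Hmox1, the heme oxygenase that frees iron from heme, rose from 15.8 ± 2.84 to 25.9 ± 2.48 CPM (log2 fold change 0.71, edgeR adjusted p = 0.0166). Cd163, the macrophage receptor for hemoglobin bound to haptoglobin, was at 12.2, 17.3 and 9.63 CPM with vehicle and at 4.001, 6.57 and 7.74 CPM with FGF19, and fell by 1.09 on the log2 scale (edgeR adjusted p = 0.0378). The sum of the Kupffer cell markers given with Slc40a1 overlapped between the groups, while Vsig4 among them lay lower in every FGF19 mouse and Marco and Emr1 lay higher, and their part in the Cd163 values was not tested. The calls of Hpx and Hp held in all 13 alternatives, that of Hmox1 in 10 and that of Cd163 in 9, and the lost ones were lost where single mice were left out.

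Among genes of cellular iron control and iron-sulfur clusters, 1 of 17 tested fell and none rose, with a median of -0.06. This was Aco1, which encodes iron regulatory protein 1, one of the proteins that bind the hairpins shown above. Aco1 was at 208, 178 and 192 CPM with vehicle and at 154, 154 and 135 CPM with FGF19 (log2 fold change -0.38, edgeR adjusted p = 0.0426). The groups did not overlap, and 6 of 13 alternatives kept the call, which was lost without TMM scaling, with a replicate block and without any 1 of the mice other than FGF19 replicate 3. None of the 78 genes held a match to the iron-responsive element search. The search took only stems with all 5 bases paired and no bulge, so it would miss other forms of the element. A gene without a match can therefore still hold one.

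**Figure D5:**
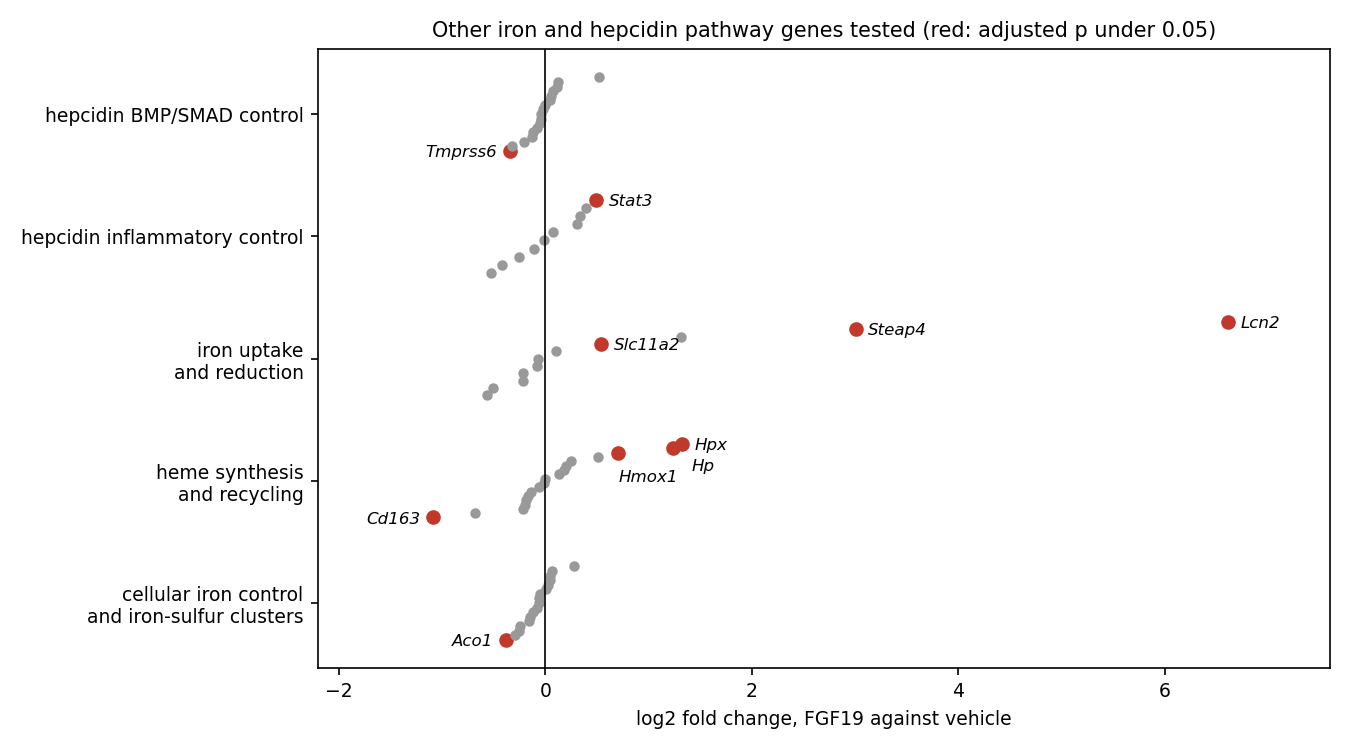
Log2 fold change, FGF19 against vehicle, of the 73 other iron and hepcidin pathway genes tested, 1 point a gene in 5 lists, ordered by change within a list. The 10 red and named points have an adjusted p under 0.05, and all 5 lists hold most of their genes near 0, with Lcn2 at 6.61 and Steap4 at 3.01 far to the right.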

How the data were processed

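RNA-seq was of livers of 3 vehicle and 3 FGF19 mice, grouped by the treatment label. The deposited values are raw read counts per gene, which the authors made with STAR (2.5.3a per the submitters' processing notes, while the paper names other versions) and featureCounts 1.5.2 on mm9. Per the file headers, strand was not used, mates were counted separately and multiply aligned reads were left out. The authors' table of their own comparison (log fold changes, mean log CPM, p-values and FDR) was not used, and no column of per-sample values was left out.

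Here R 4.3.3 and edgeR 4.0.16 were used, with filterByExpr (12559 genes kept), TMM scaling (factors 0.964 to 1.03) and the quasi-likelihood test without covariates, which was tested on simulated data. An adjusted p under 0.05 (Benjamini-Hochberg over all genes tested) was a call, and p under 0.01, the threshold of the study's methods, was also counted. No pair of libraries agreed within sampling noise (chi-square per degree of freedom 8.68 to 41.8 within groups and 72.4 to 106 between groups). Alternatives were DESeq2 1.42.0, limma-voom (limma 3.58.1), the likelihood ratio test, no TMM scaling, no filter, at least 1 CPM in every library, a replicate block, and each mouse left out.

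All 10 members were named, with up to 4 called genes per pathway list of the largest change and the 5 genes most like Hamp. Members and lists were chosen with earlier results of these data known. Sequences and positions came from the mm9 (NCBIM37) genome at the positions in the files. Near copies were searched with blastn 2.17.0.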

Additional observations from a re-analysis of the deposited data

How the results depend on the processing

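Over 13 alternatives for each of the 10 genes, 119 of 130 fold changes stayed on the same side of 0 and of the threshold, 7 were newly called, 2 lost their call and 2 reversed. The reversed values were those of Fth1, at 0.0125 without vehicle replicate 3 and 0.0137 without FGF19 replicate 2, within a range from -0.0719 where a mouse was left out, and the cause was not tested. Genes among the 10 called higher numbered 1, 2 with DESeq2 and 0 to 1 where a mouse was left out. Those called lower numbered 0, and 1 each with DESeq2, no filter on low counts, the likelihood ratio test and an unadjusted p under 0.01, and 0 to 2 where a mouse was left out. The log2 fold change of Hamp ran from -0.88 to -0.30 where a mouse was left out and from -0.63 to -0.61 otherwise. Pathway genes called lower numbered 3, 1 with the replicate block and 0 to 6 where a mouse was left out, and those called higher 7, and 5 to 8 over all alternatives. The 6 also came without FGF19 replicate 3. The 8 came with the likelihood ratio test and an unadjusted p under 0.01, where 780 and 779 of 12559 genes were higher.

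Deviations of same-numbered mice from their group means correlated between -0.26 and -0.06, and those of mice with unlike numbers between -0.15 and 0.28. Deviations within a group of 3 add up to 0, so these values depend on each other. They cannot show whether the numbers mark pairs. The replicate block called 370 genes higher and 164 lower against 573 and 357 without it, and left 1 of the 10 genes higher and 0 lower. With no filter, 16890 genes were tested, and the likelihood ratio test called 780 higher and 579 lower. With 3 mice a group, an exact permutation test of 1 gene cannot give a p below 0.1. No other scaling moved the median of all genes by over 0.01 on the log2 scale. Each of the 10 genes had at least 218 counts in every library, and for those with the fewest, such as Hamp2, counting error is part of the spread between mice.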
